A study of Homo sapiens with 6 samples.

Results

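The genes of the constitutive proteasome were compared between calcitriol-treated and vehicle-treated CaSki cells, an established human cervical cancer line that carries HPV16. Members were all array features with exactly 1 gene symbol in the platform table that is *PSMA*, *PSMB*, *PSMC*, *PSMD* or *PSME* followed by digits only, except the inducible catalytic genes *PSMB8*, *PSMB9* and *PSMB10*. This gave 46 of the 138745 features and 36 genes, and where a gene had several features (5 genes) the brightest stood for it. *PSMC5*, *PSMD7* and *PSMD13* were not analysed here, and neither was *PSME2*, whose feature also carries a microRNA symbol. Cells received 10 nM calcitriol, the active form of vitamin D, or 0.1% ethanol as vehicle for 24 h, in medium with charcoal-stripped serum. RNA was hybridized to 6 Clariom D arrays, 3 pools of calcitriol-treated and 3 of vehicle-treated cells. Each pool mixed RNA of 3 replicates from 3 independent experiments on the same cell line, so the spread between pools may be largely technical, and the p-values measure only that spread.

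The proteasome is the main protease of the cytosol and nucleus and breaks down proteins that carry chains of ubiquitin. Its core particle (20S) is a barrel in which outer rings of α subunits gate the entrance and inner rings of β subunits hold the proteolytic sites. The regulatory particle (19S) sits on the end of the barrel, where its lid takes off ubiquitin and the ATPases of its base unfold the substrate. Under interferon, the catalytic β subunits are replaced by inducible ones and the barrel is then called an immunoproteasome. In cervical cancer cells with HPV16, the viral E6 protein directs p53 to the proteasome through the ubiquitin ligase encoded by *UBE3A*.

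None of the 36 genes passed the test with calcitriol. Signals are the deposited log2 values, a change is the log2 fold change (calcitriol minus vehicle) from limma, and adjusted p-values are Benjamini-Hochberg over all features. At an unadjusted p under 0.05, 0 members were lower and 0 higher, where 5.41% of all features and 9.08% of the 8229 coding genes above the negative controls had such a p. After adjustment 0 passed, where 0.000721% of all features and 0.0122% of those coding genes did. The smallest unadjusted p was 0.0812 (*PSMB2*), and adjusted p-values were 0.915 to 0.999. The treatment itself was visible in the same fit, with *CYP24A1*, the gene of the enzyme that degrades calcitriol, at 11.68, 12.82 and 13.27 in the calcitriol pools, against 4.90, 4.31 and 5.77 in the vehicle pools. The 3 vehicle pools lay below the negative controls, and the mean of the calcitriol pools was at least 77.4-fold higher. The adjusted p was 0.0137, and this was the only feature under 0.05. A signal of 6.32, under which 95% of the 612 negative control features stayed, was taken as their level, and 34 members lay above it.

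Changes of the members were small and mostly below 0. The log2 fold change was negative for 30 of 36 members (83.3%) and for 29 of the 34 above the negative controls (85.3%), beside 78% of the 8229 coding genes above that level and 50.7% of all features. Its median was -0.07 over the 36 members and -0.08 over the 34, against -0.16 over those coding genes and 0.00 over all features. It ran from -0.36 for *PSMD8* to 0.41 for *PSMA8*, which lay below the negative controls, and among the 34 brighter members the highest was 0.21 for *PSMA2*. No member reached a fold of 1.5 in either direction, where 4.55% of all features and 5.19% of the brighter coding genes did. Signs depended on the scaling. With each array centred on the brighter coding genes, 9 of the 36 members were negative and the median was 0.11. With each array centred on the mean of 8 exogenous control RNAs, 1 (*PSMD8*) was negative and the median was 0.27. The changes of these 8 controls were unequal, from -0.63 to -0.13. Signs below are those of the deposited scale, and for every member except *PSMD8* they were positive in the second of these settings.

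A p above the threshold does not show that the genes did not respond, so the intervals were also read. The 95% interval of the log2 fold change lay wholly within a fold of 1.5 in either direction for 19 of the 36 members (52.8%), beside 31.2% of all features and 31.7% of the brighter coding genes. All 36 intervals lay within a fold of 2. For 15 members the interval still held a decrease of 1.5-fold or more, and for 3 an increase of that size. The median standard error was 0.19 over the members and 0.21 over the brighter coding genes. In 23 members the change was smaller than the pooled SD of the pools. RNA pools give the level over the whole culture, in which fewer cells with a transcript and less of it per cell cannot be told apart.

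**Figure D1:**
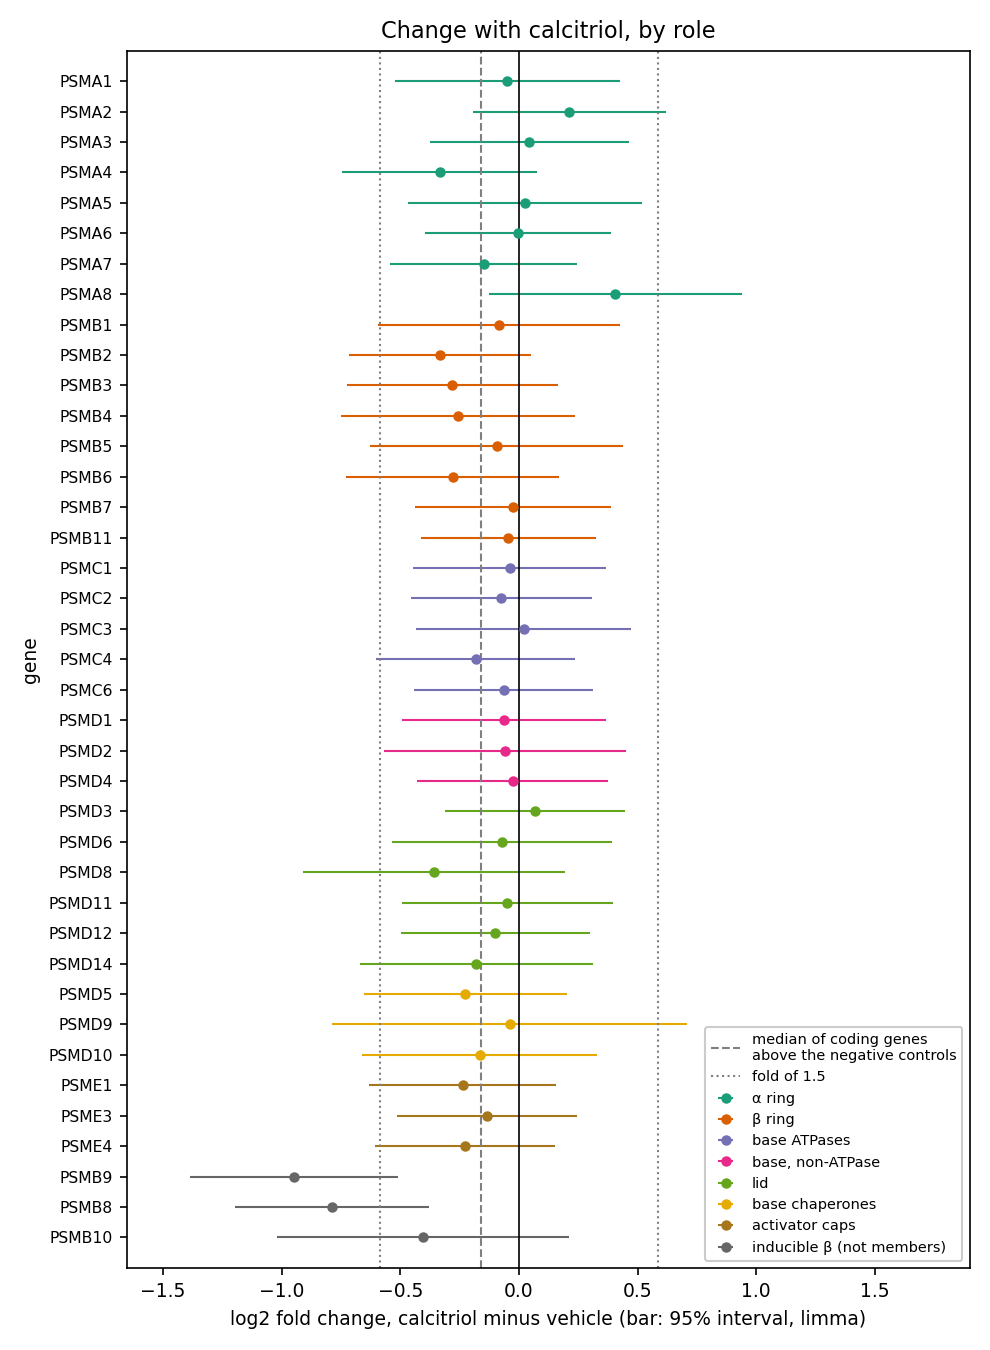
Log2 fold change (calcitriol minus vehicle, x axis) of each gene (y axis), grouped by role and coloured by it; bars are 95% intervals from limma with 3 pools per group, the dotted lines mark a fold of 1.5 and the dashed line the median of coding genes above the negative controls. All 36 member intervals cross 0, whereas those of the inducible genes *PSMB9* and *PSMB8* do not.

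**Figure D2:**
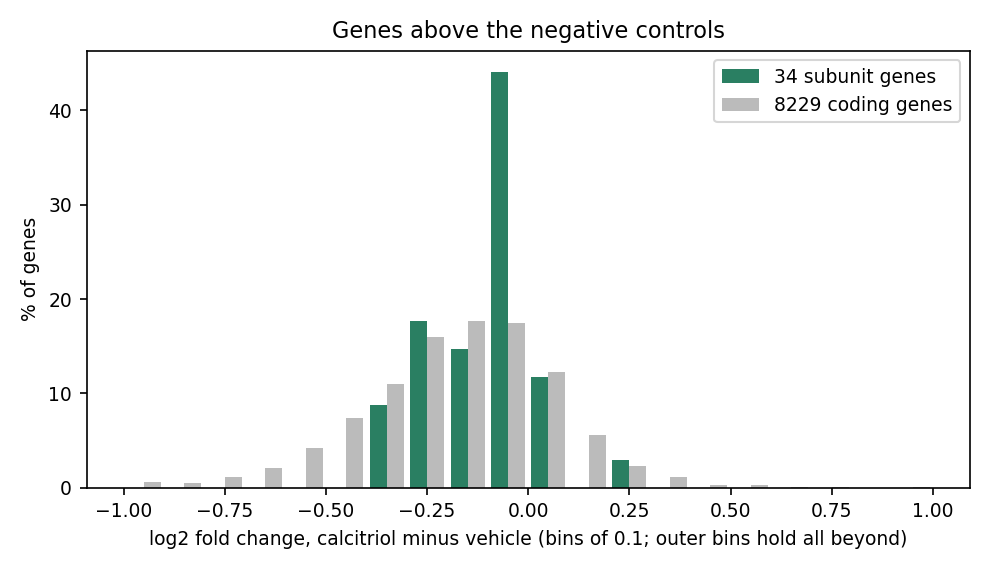
Share of genes (y axis, %) by log2 fold change (x axis, calcitriol minus vehicle, bins of 0.1) for the 34 members above the negative controls and the 8229 coding genes above them. The fullest bin of the members is the one just below 0, with 15 of the 34, and none of them lies below -0.4. The fullest bin of the coding genes is -0.2 to -0.1.

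The pools of the 2 groups overlapped for nearly all members. All 3 calcitriol pools lay below all vehicle pools for 3 of the 36 (8.33%), where such a separation was found for 5.55% of all features and 15.5% of the brighter coding genes. They lay above for 0, where the shares were 5.16% and 1.11%. The genes were *PSMB2*, *PSME1* and *PSME4*.
*PSMB2*, the gene of a β subunit without a proteolytic site, had signals of 14.19, 14.14 and 14.24 in the calcitriol pools, against 14.66, 14.52 and 14.38 in the vehicle pools. The change was -0.33 (standard error 0.17, 95% interval -0.71 to 0.05), an unadjusted p of 0.0812. Its unadjusted p was 0.0204 without moderated variances and 0.0318 with a mean-variance trend, but 0.225 after quantile normalization (change -0.22) and 0.491 with centring on coding genes (change -0.15).
*PSME1* encodes a subunit of the 11S cap, an interferon-responsive ring that opens the barrel without ubiquitin or ATP, and had 11.22, 10.90 and 11.19 in the calcitriol pools, against 11.39, 11.30 and 11.32 in the vehicle pools. The highest calcitriol pool lay only just under the lowest vehicle pool, and the change was -0.24 (standard error 0.17, 95% interval -0.63 to 0.16).
*PSME4*, the gene of the single-chain activator PA200, had 11.69, 11.58 and 11.52 in the calcitriol pools, against 11.86, 11.92 and 11.70 in the vehicle pools. These groups were also close, with a change of -0.23 (standard error 0.17, 95% interval -0.60 to 0.15). *PSME3*, which encodes the nuclear cap PA28-gamma, followed with -0.13 (standard error 0.17) and overlapping pools, so all 3 measured cap genes were negative without passing the test (positive when centred on the exogenous controls).

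The α ring had changes on both sides of 0, with 4 of its 8 genes negative and 4 positive and a median of 0.01. *PSMA4*, the gene with the smallest p of the ring, had 12.74, 12.55 and 12.49 in the calcitriol pools, against 12.71, 13.04 and 13.04 in the vehicle pools. Calcitriol pool 1 lay inside the vehicle range and the others below it, and the change was -0.33 (standard error 0.18, 95% interval -0.75 to 0.08). *PSMA8* encodes the α subunit of testis-specific proteasomes, and its signals were all below the negative controls, at 4.18, 4.60 and 4.07 in the calcitriol pools, against 3.84, 3.56 and 4.23 in the vehicle pools. Its change was 0.41 (standard error 0.23, 95% interval -0.13 to 0.94). Among the ring's other members, *PSMA2* had 0.21 (standard error 0.18), *PSMA7* -0.15 (standard error 0.17), and *PSMA1*, *PSMA3*, *PSMA5* and *PSMA6* lay between -0.05 and 0.04. *PSMA6*, at -0.00 (standard error 0.17), had the change closest to 0 of all members.

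All 8 genes of the β ring were negative on the deposited scale and positive with centring on the exogenous controls, with a median of -0.18 as deposited, and 0 passed the test. *PSMB5* carries the chymotrypsin-like site, which bortezomib blocks, and had signals of 9.78, 9.62 and 9.84 in the calcitriol pools, against 10.19, 9.96 and 9.37 in the vehicle pools. The calcitriol pools lay within the vehicle range, which vehicle pools 1 and 3 spanned, and the change was -0.09 (standard error 0.23, 95% interval -0.63 to 0.44). *PSMB6*, the gene of the caspase-like site, had 11.38, 11.77 and 11.39 in the calcitriol pools, against 11.83, 11.97 and 11.57 in the vehicle pools. Calcitriol pool 2 lay among the vehicle pools and the others below them, a change of -0.28 (standard error 0.20, 95% interval -0.73 to 0.17).
*PSMB7* carries the trypsin-like site. Its signals were 14.60, 14.99 and 14.82 in the calcitriol pools, against 14.96, 14.72 and 14.80 in the vehicle pools, the groups overlapped throughout, and the change was -0.03 (standard error 0.18, 95% interval -0.44 to 0.39). *PSMB3*, a structural subunit, had 13.39, 13.49 and 13.32 in the calcitriol pools, against 13.89, 13.80 and 13.36 in the vehicle pools. Vehicle pool 3 lay within the calcitriol range and the other vehicle pools above it, with a change of -0.28 (standard error 0.19, 95% interval -0.72 to 0.16). The structural genes *PSMB4* and *PSMB1* had changes of -0.26 (standard error 0.22) for *PSMB4* and -0.08 (standard error 0.22) for *PSMB1*, and *PSMB11*, the thymus-specific catalytic gene, was below the negative controls in both groups with -0.04 (standard error 0.16).

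The inducible counterparts of the catalytic genes were read on the same arrays. *PSMB9*, which replaces *PSMB6*, had 10.92, 10.74 and 11.20 in the calcitriol pools, against 12.08, 11.83 and 11.79 in the vehicle pools. The groups did not overlap, calcitriol being lower, and its change was -0.95 (standard error 0.19) with an unadjusted p of 0.000953 and an adjusted p of 0.915. *PSMB8*, which replaces *PSMB5*, had 9.73, 9.70 and 9.69 in the calcitriol pools, against 10.74, 10.34 and 10.40 in the vehicle pools, again without overlap, and its change was -0.79 (standard error 0.18) with an unadjusted p of 0.00196 and the same adjusted p. *PSMB10*, which replaces *PSMB7*, lay below the negative controls in both groups, with 4.64 ± 0.55 with calcitriol and 5.04 ± 0.08 with vehicle (SD, n = 3 pools).
Within arrays, the constitutive signal minus the inducible one was larger with calcitriol than with vehicle by 0.69 for *PSMB5* minus *PSMB8* and by 0.67 for *PSMB6* minus *PSMB9* (log2). In both pairs all 3 calcitriol arrays lay above all vehicle arrays. For *PSMB6* minus *PSMB9* the groups nearly met, at 0.18 on calcitriol array 3 and 0.14 on vehicle array 2. The differences of both pairs were taken after the inducible genes had been seen to separate, so they are a description. With 3 arrays against 3, no exact two-sided p below 0.1 is possible. A difference within an array does not change when the array is centred, which shifts all its log2 values by the same constant. Quantile normalization can change it, and the pairs were not computed with that setting. *PSMB10* lay below the negative controls, so no difference is given for *PSMB7*.

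**Figure D3:**
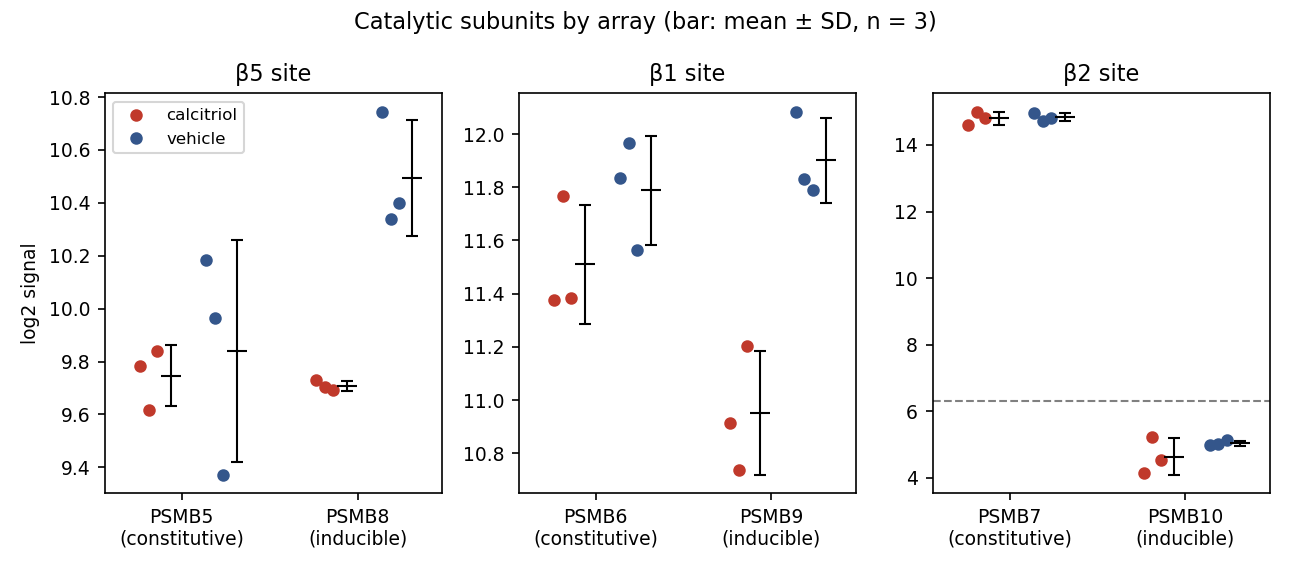
Log2 signal (y axis) of the constitutive and the inducible gene of each catalytic site on the 3 calcitriol and 3 vehicle arrays; black bars are mean ± SD, and the dashed line is the level of the negative controls. *PSMB8* and *PSMB9* separate by group, whereas *PSMB5*, *PSMB6* and *PSMB7* overlap.

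The ATPases of the base, which form the ring that unfolds substrates, had a median change of -0.06, with 4 of 5 genes negative. *PSMC4* had 15.81, 15.91 and 15.58 in the calcitriol pools, against 15.99, 16.11 and 15.75 in the vehicle pools. Vehicle pools 1 and 2 exceeded all calcitriol pools while vehicle pool 3 lay among them, and the change was -0.18 (standard error 0.18, 95% interval -0.60 to 0.24). This is the brightest of 7 features of *PSMC4* and carries no chromosome in its identifier; the feature that does, chosen after its values were seen, gave -0.10 (standard error 0.19).
*PSMC2* had 15.39, 15.35 and 15.43 in the calcitriol pools, against 15.51, 15.58 and 15.31 in the vehicle pools, overlapping groups with a change of -0.07 (standard error 0.17, 95% interval -0.45 to 0.31). *PSMC1*, *PSMC3* and *PSMC6* had changes of -0.04, 0.02 and -0.06, with standard errors of 0.16 to 0.20. A dimmer second feature of *PSMC6* stood apart from the first and is named after its values were seen: it had 6.03, 6.66 and 5.97 in the calcitriol pools, against 7.48, 6.92 and 7.60 in the vehicle pools. The calcitriol pools lay below all vehicle pools there, with a change of -1.11 (standard error 0.26), an unadjusted p of 0.00241 and an adjusted p of 0.915. Both features carry the *PSMC6* symbol, and only the brighter one, at 10.41 ± 0.06 with calcitriol and 10.48 ± 0.12 with vehicle (SD, n = 3 pools), has an Entrez identifier in the platform table.

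The scaffold subunits of the base and its ubiquitin receptor were close to 0, and the whole 95% interval of each lay within a fold of 1.5. *PSMD1*, a scaffold subunit, had 13.22, 13.08 and 13.51 in the calcitriol pools, against 13.21, 13.50 and 13.29 in the vehicle pools. The other scaffold gene, *PSMD2*, had 14.49, 15.10 and 14.97 in the calcitriol pools, against 15.18, 14.83 and 14.72 in the vehicle pools. Groups overlapped in both, with changes of -0.06 (standard error 0.19) for *PSMD1* and -0.06 (standard error 0.22) for *PSMD2*. *PSMD4*, which encodes a receptor that binds ubiquitin chains, had -0.03 (standard error 0.18).
In the lid, 5 of 6 genes were negative with a median of -0.09. *PSMD8*, with the lowest change of all members, had 14.25, 14.50 and 13.93 in the calcitriol pools, against 14.87, 14.71 and 14.17 in the vehicle pools. Vehicle pools 1 and 2 lay above every calcitriol pool and vehicle pool 3 lay among them, with a change of -0.36 (standard error 0.24, 95% interval -0.91 to 0.19). Leaving out single arrays moved it both ways, to -0.56 without vehicle replicate 3 (unadjusted p of 0.0437) and to -0.21 without calcitriol replicate 3 or vehicle replicate 1 (unadjusted p of 0.448 and 0.439). *PSMD14* encodes the metalloprotease that takes off ubiquitin chains, and had 11.39, 12.09 and 11.91 in the calcitriol pools, against 11.99, 12.05 and 11.89 in the vehicle pools. Calcitriol pool 1 stood below the other arrays, and the change was -0.18 (standard error 0.22, 95% interval -0.67 to 0.31). The lid genes *PSMD3*, *PSMD6*, *PSMD11* and *PSMD12* lay between -0.10 (*PSMD12*) and 0.07 (*PSMD3*).
Some genes of the *PSMD* series encode chaperones that help to assemble the base and leave before it is complete. *PSMD5* had 12.83, 12.61 and 12.96 in the calcitriol pools, against 13.02, 13.22 and 12.83 in the vehicle pools. Pools overlapped, with a change of -0.23 (standard error 0.19, 95% interval -0.65 to 0.20). *PSMD10*, which encodes gankyrin, had 12.89, 13.54 and 13.22 in the calcitriol pools, against 13.18, 13.58 and 13.38 in the vehicle pools, and a change of -0.16 (standard error 0.22, 95% interval -0.66 to 0.33). *PSMD9* had -0.04 (standard error 0.33) and the widest spread of all members, with an SD of 0.63 over the calcitriol pools and of 0.36 over the vehicle pools.

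**Figure D4:**
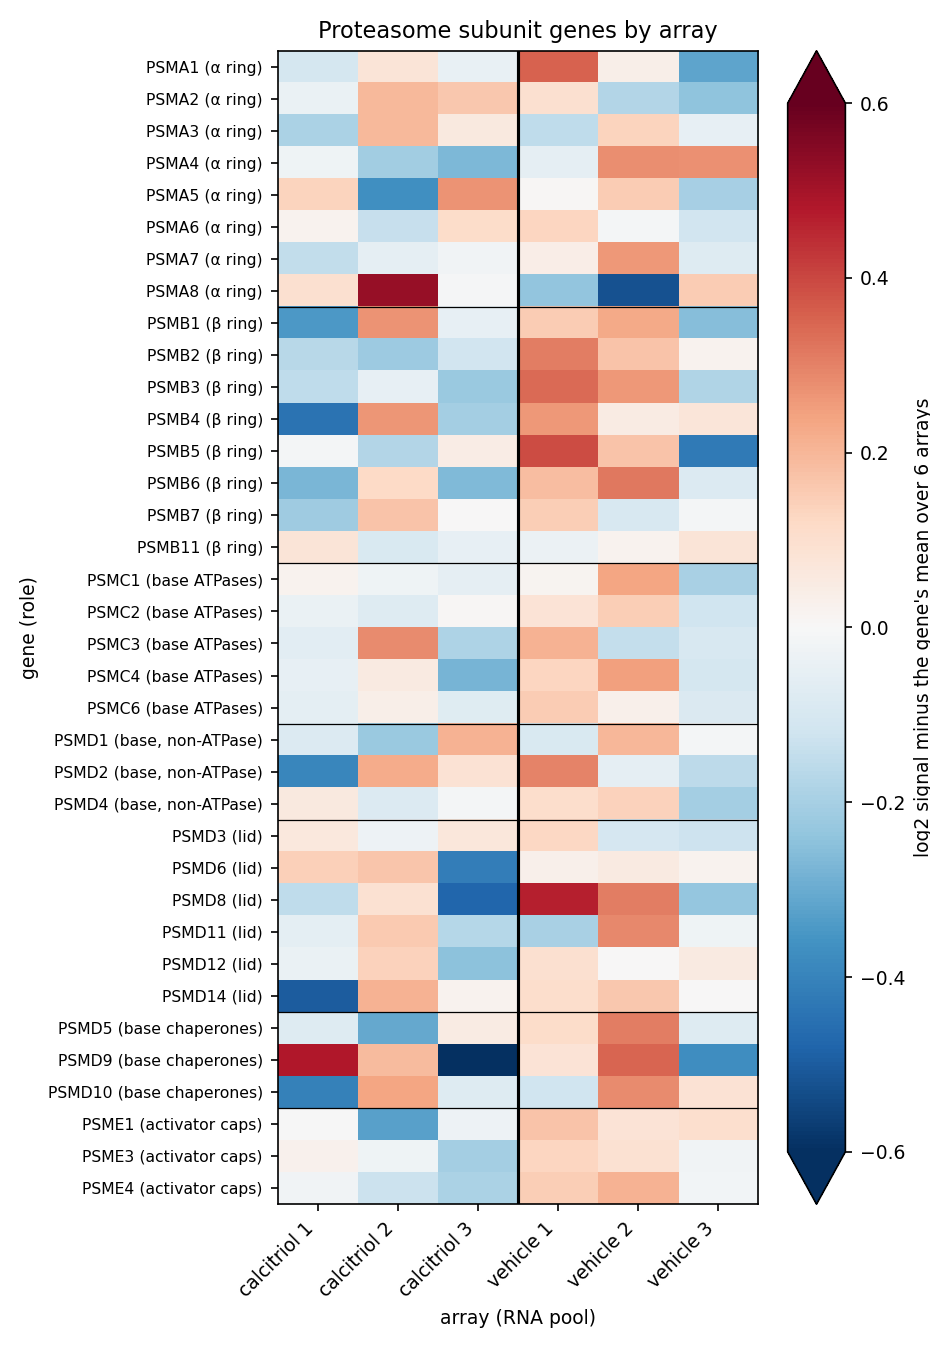
Log2 signal of each of the 36 genes (rows, by role) on each array (columns), as the difference from the gene's mean over the 6 arrays (colour scale, log2; values beyond 0.6 share the end colours). Calcitriol arrays 1 and 3 and vehicle array 3 are mostly blue (below the mean), whereas vehicle arrays 1 and 2 are mostly red.

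Members differed between arrays of the same group about as much as between groups. The mean signal of the 34 brighter members was 12.84, 12.95 and 12.83 on calcitriol arrays 1 to 3, against 13.05, 13.06 and 12.84 on vehicle arrays 1 to 3. Vehicle array 3 thus lay within the range of the calcitriol arrays. The difference between the group means was -0.11 and the pooled SD of the arrays 0.10. The highest array was vehicle 1 for 11 of the 34 genes, vehicle 2 for 11 and calcitriol 2 for 9, and it was vehicle 3 for 0. The lowest was calcitriol 3 for 10, calcitriol 1 for 9 and vehicle 3 for 8. By particle, the mean difference was -0.11 for the 20S genes (pooled SD 0.12) and -0.08 for the 19S genes (pooled SD 0.11).
On the same arrays the mean over the 8229 coding genes was 9.80, 10.02 and 9.86 with calcitriol against 10.01, 10.16 and 10.02 with vehicle, a difference of -0.17. The 8 exogenous control RNAs, which do not come from the cells, averaged 8.19, 8.40 and 8.11 on the calcitriol arrays against 8.62, 8.57 and 8.53 on the vehicle arrays, a difference of -0.34. Singly, the changes of these controls ran from -0.63 to -0.13. The control with the largest change lay below the negative controls, at means of 3.95 with calcitriol and 4.58 with vehicle. The part of the exogenous controls in the sign of the members' changes was not tested, nor was centring on a subset of them. Correlations between arrays over all features were 0.981 to 0.984, and no pair held identical values. Of the epithelial markers measured, 3 of 3 squamous ones (*KRT5*, *KRT14*, *SFN*) and 5 of 5 glandular ones lay above the negative controls, whereas 0 of 3 leukocyte and 0 of 3 endothelial markers did. Of 4 fibroblast markers, *COL1A1* and *COL1A2* did. Of all these markers only *KRT18*, a glandular keratin, passed in limma before adjustment, with -0.56 (standard error 0.24) (adjusted p = 0.915), and its part in the members' values was not tested.

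**Figure D5:**
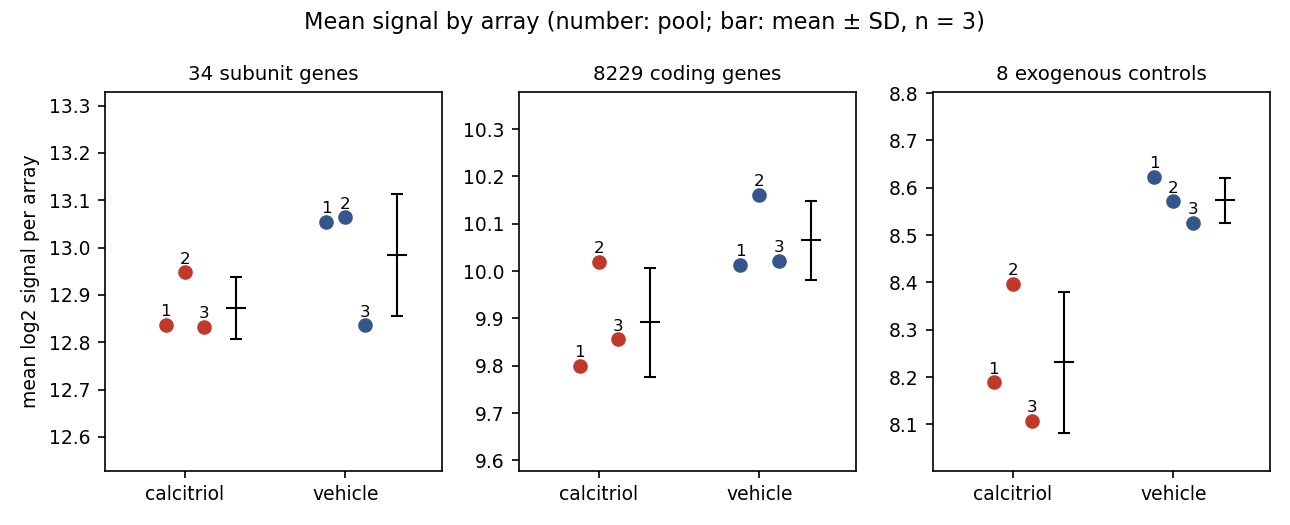
Mean log2 signal per array (y axis, each panel spanning the same range of 0.8) of the 34 members, the 8229 coding genes above the negative controls and the 8 exogenous controls, by group; numbers give the pool and black bars the mean ± SD over 3 arrays. Vehicle array 3 sits with the calcitriol arrays for the subunit genes, while the exogenous controls separate by group.

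Genes that build, regulate and feed the proteasome were read from 7 lists with 46 genes, of which 40 were measured. Including the inducible subunits, 5 of these were lower and 0 higher at an unadjusted p under 0.05 (2.83% and 2.58% of all features, and 8.6% and 0.474% of the brighter coding genes, were), and 0 passed after adjustment. Apart from *PSMB8* and *PSMB9*, the genes were *UBXN7*, *SEM1* and *ZFAND5*. Signs in these lists are those of the deposited scale. On it 34 of the 40 genes were negative (85%), beside 78% of the brighter coding genes and 50.7% of all features.
Among the 6 assembly chaperones 0 passed, all were negative on the deposited scale, and the median was -0.30. One of them, *PSMG4*, lay below the negative controls. *PSMG2*, part of the chaperone pair that builds the α ring, had 14.20, 14.27 and 14.06 in the calcitriol pools, against 14.64, 14.58 and 14.40 in the vehicle pools. Its groups did not overlap, and the change was -0.36 (standard error 0.17) with an unadjusted p of 0.0622. Centred on the exogenous controls, the change of *PSMG2* was -0.02. Its partner *PSMG1* had -0.56 (standard error 0.28) with overlapping pools. *POMP*, the chaperone of β ring assembly, had -0.20 (standard error 0.18).
Of 9 associated proteins 2 were lower. *SEM1*, the gene of a small lid subunit, had -0.82 (standard error 0.23) at signals below the negative controls. *ZFAND5*, a ubiquitin-binding activator of degradation, had 12.20, 12.43 and 12.28 in the calcitriol pools, against 12.71, 12.59 and 12.95 in the vehicle pools. These groups did not overlap, with a change of -0.44 (standard error 0.18) and an unadjusted p of 0.036 (adjusted 0.915). *ADRM1*, the gene of a ubiquitin receptor, had -0.24 (standard error 0.26) and *USP14*, a deubiquitinase of the base, -0.13 (standard error 0.18).
Of 7 genes around the VCP unfoldase, which extracts substrates for the proteasome, 1 was lower. *UBXN7*, an adaptor of VCP, had 9.42, 9.66 and 9.23 in the calcitriol pools, against 10.15, 10.47 and 10.33 in the vehicle pools. All calcitriol pools lay below all vehicle pools, with a change of -0.88 (standard error 0.19), an unadjusted p of 0.00141 and an adjusted p of 0.915. *FAF2*, another adaptor, had -0.36 (standard error 0.16) and also no overlap. *VCP* itself had -0.01 (standard error 0.27).
The regulators of proteasome gene transcription showed 0 calls among 6. *NFE2L1*, whose product NRF1 raises proteasome genes when degradation is blocked, had 13.31, 13.29 and 13.20 in the calcitriol pools, against 13.32, 13.67 and 13.33 in the vehicle pools. Its calcitriol pools lay just below the vehicle pools with a change of -0.17 (standard error 0.18), and *BACH1*, a repressor at antioxidant response elements, had -0.20 (standard error 0.20). The related *NFE2L2* had 0.13 (standard error 0.22). Among 5 shuttle receptors, which carry ubiquitinated proteins to the proteasome, 0 passed, with -0.17 (standard error 0.16) for *RAD23B* and -0.27 (standard error 0.17) for *DDI1*, which lay below the negative controls. Of the 4 measured genes of ubiquitin and its first enzymes 0 passed. The ubiquitin gene *UBB* had -0.29 (standard error 0.17), the activating enzyme gene *UBA1* -0.33 (standard error 0.25) and *UBE3A*, the ligase used by E6, -0.16 (standard error 0.23).

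Promoters are printed for the members whose pools separated (*PSMB2*, *PSME1*, *PSME4*), and for a constitutive and an inducible catalytic gene, *PSMB5* and *PSMB9*, set side by side. Each is the 250 bases before the annotated start from RefSeq, 5′ to 3′ on the gene's strand, and for *PSMB5* before the outer of 2 annotated starts. Capitals mark matches, on either strand, to the antioxidant response element core TGACNNNGC that NRF1 and NRF2 bind, the ETS core CCGGAAG, the interferon-stimulated response element core (GAAA, any 2 bases, GAAA), the gamma-activated sequence TTCNNNGAA or the vitamin D response element.
PSMB2 (GRCh38.p14, chr1:35641527-35641776, minus strand): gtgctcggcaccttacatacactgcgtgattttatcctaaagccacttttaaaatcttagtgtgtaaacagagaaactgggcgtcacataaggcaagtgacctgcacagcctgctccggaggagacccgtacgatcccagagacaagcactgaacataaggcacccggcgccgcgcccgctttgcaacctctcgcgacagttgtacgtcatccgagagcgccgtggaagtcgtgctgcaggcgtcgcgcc
PSME1 (GRCh38.p14, chr14:24135944-24136193, plus strand): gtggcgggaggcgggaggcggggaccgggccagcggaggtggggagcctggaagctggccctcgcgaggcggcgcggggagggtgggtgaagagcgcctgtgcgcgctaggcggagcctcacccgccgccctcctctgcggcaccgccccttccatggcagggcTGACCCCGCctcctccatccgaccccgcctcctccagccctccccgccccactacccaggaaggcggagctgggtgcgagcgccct
PSME4 (GRCh38.p14, chr2:53970994-53971243, minus strand): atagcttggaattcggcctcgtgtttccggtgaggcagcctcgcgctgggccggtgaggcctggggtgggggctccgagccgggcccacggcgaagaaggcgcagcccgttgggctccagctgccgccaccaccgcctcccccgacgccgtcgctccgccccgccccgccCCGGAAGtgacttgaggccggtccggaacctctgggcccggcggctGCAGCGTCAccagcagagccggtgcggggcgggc
PSMB5 (GRCh38.p14, chr14:23035221-23035470, minus strand): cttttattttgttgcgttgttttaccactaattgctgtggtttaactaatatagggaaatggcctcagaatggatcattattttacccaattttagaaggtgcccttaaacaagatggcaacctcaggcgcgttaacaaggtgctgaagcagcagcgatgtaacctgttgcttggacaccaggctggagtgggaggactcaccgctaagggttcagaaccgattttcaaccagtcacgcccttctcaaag
PSMB9 (GRCh38.p14, chr6:32853942-32854191, plus strand): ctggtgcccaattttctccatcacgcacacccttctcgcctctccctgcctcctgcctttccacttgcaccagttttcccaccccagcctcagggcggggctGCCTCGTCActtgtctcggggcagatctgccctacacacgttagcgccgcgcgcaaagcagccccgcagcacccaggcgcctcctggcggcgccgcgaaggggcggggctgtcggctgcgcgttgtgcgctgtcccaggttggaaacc
*PSME1* held 1 antioxidant response element core, 86 bases before the start, *PSME4* held 1 at 34 bases and an ETS core at 80 bases, and *PSMB9* held 1 antioxidant response element core at 148 bases. *PSMB2* and the *PSMB5* window shown held no match to these letters, whereas the window before the inner *PSMB5* start, not shown, held 2 gamma-activated sequences, 15 and 158 bases before that start. No marked matches overlapped. RefSeq promoters (GRCh38.p14) were matched for 31 of the 36 members, with 36 start sites. The antioxidant response element core was found in 22.2% of these 36 windows, against 10.9% of 35116 promoters of the same length, and the ETS core in 22.2% against 8.52%. The gamma-activated sequence was found in 16.7% against 6.57%, the interferon-stimulated core in 5.56% against 3.02%, and the vitamin D response element in 0% against 0.0655%. A match of letters is a description of the window and not a bound site. *PSMA7*, *PSMB1*, *PSMB6*, *PSMB7* and *PSMD4* were not matched.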

How the data were processed

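Clariom D arrays measured 3 RNA pools of calcitriol-treated and 3 of vehicle-treated CaSki cells. Background correction and normalization were done by the authors in Transcriptome Analysis Console v4.0.1. Which algorithm they chose is not given in the sources used here, nor is an annotation build. The authors deposited 1 log2 signal per feature and array, which was used as it stood. The number of arrays, 3 per group, limits the precision.

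Groups were compared by a linear model in limma 3.58.1 (under R 4.3.3) with moderated variances over all 138745 features, 2995 control features included, with two-sided p-values adjusted by Benjamini-Hochberg. Signals of different features were set against each other only as the within-array difference of 2 catalytic pairs. Genes were named through the platform table and RefSeq. Values on every array are given for the 3 catalytic subunits, the 2 members of each role with the smallest p, the members with the highest and lowest change, and in other lists the 2 genes with the smallest p are named; other genes were named with their values in view. The members and lists were chosen with earlier results of these data known. The fit was tested on simulated data with independent noise for each feature. These data held no shift shared by the features of an array, so the scaling was not tested there. Alternatives were a block, other scalings, variances, filters, features and averages, and leaving out each array.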

Additional observations from a re-analysis of the deposited data

How the results depend on the processing

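With quantile normalization the median log2 fold change of the members was 0.033, 15 of 36 were negative, 1 member had calcitriol pools below all vehicle pools and 1 (*PSMA2*) above. Centred on coding genes above the negative controls, the median was 0.11, 9 were negative, 1 (*PSMA8*) was higher at an unadjusted p under 0.05, and 0 separated below and 3 above. Centred on the exogenous controls, the median was 0.27, 1 was negative, 2 (*PSMA2*, *PSMA8*) were higher, 0 separated below and 10 above, and 7 intervals lay within a fold of 1.5. These settings moved the median of all features to 0.00, 0.18 and 0.34. In them 5.29%, 3.54% and 6.26% of the brighter coding genes had an unadjusted p under 0.05, in either direction. The share of all features that separated was not computed for any alternative. The counts of separated members here and below thus have no background beside them. The median of the members minus that of the brighter coding genes, 0.09, was 0.062 to 0.089 under the alternatives with all arrays, and 0.027 (without vehicle replicate 3) to 0.11 when single arrays were left out. With a mean-variance trend or the ordinary variance 1 member was lower (*PSMB2*), and with the mean of all features of a gene 1 (*PSMC6*), where 5 separated below. When single arrays were left out, 0 to 1 members were lower and 0 to 1 higher (*PSMD8* and *PSMA8*, both without vehicle replicate 3). In these fits 5.04% to 12.3% of the brighter coding genes had an unadjusted p under 0.05. Of the members 3 to 13 separated below, 0 to 2 separated above and 25 to 32 were negative. There were 9 to 15 intervals within a fold of 1.5 and medians from -0.16 to -0.06. All of these fits had fewer arrays to separate. The 13 came without vehicle replicate 3, and leaving out any other array gave 3 to 6. The single feature past an adjusted p of 0.05 (*CYP24A1*) was lost with the ordinary variance and without calcitriol replicate 2 or 3 or vehicle replicate 1 or 2. The filter on dim features, which left 34 members, the fit without control features and the other *PSMC4* feature, an alternative added after seeing the data, changed no count of members past 1.5 times. With Tukey biweight averages, which give no test, 26 members were negative.

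Pool numbers are shared by the groups, but no source says that they pair the pools. Deviations of same-numbered pools from their group means correlated at 0.02 to 0.04 over all features, where every pool correlated best with its own number, and at 0.02 to 0.13 over the brighter coding genes, where calcitriol pool 2 and vehicle pool 3 did not. With the pool number as a replicate block 0 members were lower and 0 higher, and 732 brighter coding genes had an unadjusted p under 0.05, against 747 without it. *ZFAND5* no longer passed with the block (unadjusted p = 0.0605), nor under the 3 scalings or without any 1 of 4 arrays. Other listed genes gained a call: *PSMG2*, *FAF2* and *UBB* with a mean-variance trend (unadjusted p = 0.0225, 0.0168 and 0.0399) and with the ordinary variance (0.0183, 0.00206 and 0.0396), *DDI1* with the ordinary variance (0.0428), *FAF2* with the filter (0.0398) and *PSMG1* without calcitriol replicate 2 (change -0.86, 0.00526). *PSMB8* and *SEM1* did not pass when centred on the exogenous controls (unadjusted p = 0.0570 and 0.0691).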
